A study of Mus musculus with 9 samples.

Results

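The Zfp zinc finger genes of chromosomes 7 and 13 were examined in ATAC-Seq libraries of mouse embryonic fibroblasts (MEFs) on their way to induced pluripotent stem cells (iPSCs). Members were the protein-coding genes of GENCODE (mouse genome mm9) on these chromosomes whose symbol is Zfp followed by digits only, and the rule used no measured value. It gave 119 of 22359 protein-coding genes, 86 on chromosome 7 and 33 on chromosome 13. They carry 117 symbols, because Zfp708 and Zfp738 are each annotated as a pair of genes. Another 225 genes with such symbols lie on other chromosomes, and 2816 other protein-coding genes share chromosomes 7 and 13 with the members.

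The study followed chromatin while retroviral Oct4, Sox2, Klf4 and c-Myc reprogrammed MEFs that carry an Oct4-GFP reporter, and asked what the histone variant H3.3 contributes. The time course had 7 libraries. D0 MEFs and D3 cells (day 3 after induction) were unsorted, D6T- and D9T- were sorted as Thy-1-negative at days 6 and 9, D12S+ and D16S+ were sorted as SSEA-1-positive at days 12 and 16, and iPSCs were fully reprogrammed. The other 2 libraries were Thy-1-negative day 6 cells that had received siRNA against H3.3 (D6 siH3.3) or non-targeting siRNA (D6 siNT) beside the same factors. Each condition had 1 library, so no difference below has a replicate check or a test, and sorting changed along with time. ATAC-Seq of the H3.3 genes cannot check an siRNA, which acts on the mRNA.

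C2H2 zinc finger proteins read DNA through tandem fingers, each a loop of residues folded around a zinc ion by paired cysteines and histidines. Many also carry a KRAB domain, which recruits TRIM28 and silencing complexes to transposable elements, and their genes have spread by tandem duplication into clusters. The fingers are mostly encoded in the long last exon, and in other cells the 3′ ends of such genes are known for H3K9me3 and for H3.3 laid down with ATRX. The promoter (3 kb upstream of any annotated transcription start site, TSS) and the last exon were therefore read apart. A gene was called accessible in a window when at least 1 base of it lay in a region called by the authors, and its level was the highest pileup of that region, divided by the total tags of the library and multiplied by 1000000 (CPM). A region that touched the gene's own promoter window counted for the promoter only.

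Libraries held 13213117 (D9T-) to 31714845 (D0) tags and 36708 (D9T-) to 133132 (D6T-) merged regions, and the lowest pileup called was 0.331 (D3) to 0.530 (D9T-) CPM, below which accessibility was not detectable. Mitochondrial tags made up at most 3.55% (D0) to 15.7% (D9T-) of a library. Of 8 fibroblast marker genes, 7 had a promoter region in D0 (summed level 5.08 CPM, Prrx1 without one), 8 in D3 (10.6), 7 in D6T- (13.4) and 4 in D9T- (3.25). In D12S+ and D16S+ 6 still had one (6.13 and 6.99), and 4 in iPSCs (3.05, with none at Twist2, Prrx1, Postn and Col1a2). Of 8 pluripotency genes, 1 had a region in D0 (summed level 0.568), 4 in D3 (2.05), 3 in D6T- (2.85), none in D9T-, 7 in D12S+ (8.01), and 8 in D16S+ (12.3) and in iPSCs (8.62). Thy1 itself had none in D6T-, D9T-, D6 siH3.3 and D6 siNT, the Thy-1-negative libraries.

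The sequences that go with the strongest promoters, with a promoter that lacked a region in D0 and with the most frequent last-exon region are shown first, read from mm9 on the strand of the gene. Capitals mark short words, found on either strand: CCAAT (bound by NF-Y), CCGGAAG (ETS factors), GGGCGG (Sp and Klf factors) and ATGCAAAT (the octamer of Oct factors). For promoters they end at the base before the first annotated exon base. Zfp574, Zfp446 and Zfp367 had the highest promoter pileups of all members in D6T-, and copies of CCAAT lie in each. Zfp296, whose product is a pluripotency-associated partner of Klf4, holds an octamer and 3 copies of GGGCGG. Zfp184 is shown for CCGGAAG, found in 16.8% of the members against 7.81% of all genes.
Zfp574, chr7:25862065-25862264, + strand: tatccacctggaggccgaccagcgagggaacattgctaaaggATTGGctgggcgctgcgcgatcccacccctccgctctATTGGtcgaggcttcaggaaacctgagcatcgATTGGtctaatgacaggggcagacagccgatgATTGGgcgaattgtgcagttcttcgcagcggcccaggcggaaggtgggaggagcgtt
Zfp446, chr7:13562997-13563196, + strand: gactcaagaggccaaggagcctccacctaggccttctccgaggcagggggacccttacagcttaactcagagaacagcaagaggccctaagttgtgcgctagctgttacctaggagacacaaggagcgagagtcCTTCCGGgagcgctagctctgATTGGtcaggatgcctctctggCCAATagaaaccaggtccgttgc
Zfp367, chr13:64254511-64254710, - strand: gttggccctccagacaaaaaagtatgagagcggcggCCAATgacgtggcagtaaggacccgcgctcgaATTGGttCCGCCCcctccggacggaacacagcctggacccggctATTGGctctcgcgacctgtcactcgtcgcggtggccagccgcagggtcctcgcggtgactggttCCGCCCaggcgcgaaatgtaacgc
Zfp296, chr7:20162471-20162635, + strand: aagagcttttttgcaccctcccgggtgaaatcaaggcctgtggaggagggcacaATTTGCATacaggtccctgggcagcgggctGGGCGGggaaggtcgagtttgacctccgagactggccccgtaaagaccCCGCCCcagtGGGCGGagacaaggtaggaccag
Zfp184, chr13:22036781-22036980, + strand: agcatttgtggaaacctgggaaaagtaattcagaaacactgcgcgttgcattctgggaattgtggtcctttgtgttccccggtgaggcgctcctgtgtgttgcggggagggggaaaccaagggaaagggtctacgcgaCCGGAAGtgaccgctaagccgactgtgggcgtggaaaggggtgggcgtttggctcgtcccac

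In the last exon of Zfp771, the 201 bases around the D6T- summit are coding sequence, and the capitals there mark ACNGGNGA, searched on the coding strand only, which encodes the start of the linker between neighbouring fingers. This word was found in 384 of 690 (55.7%) stretches of 201 bases of the members' last-exon coding sequence, against 2844 of 30943 (9.19%) over all protein-coding genes.
Zfp771, chr7:134397750-134397950, + strand: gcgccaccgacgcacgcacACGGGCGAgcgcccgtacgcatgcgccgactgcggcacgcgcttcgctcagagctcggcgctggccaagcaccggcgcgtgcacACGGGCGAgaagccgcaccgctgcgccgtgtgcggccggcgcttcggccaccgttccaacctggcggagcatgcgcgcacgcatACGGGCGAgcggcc

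In the 200 bases before the representative TSS, CCGGAAG was found in 20 of the 119 members (16.8%), against 7.81% of all protein-coding genes and 13.8% of the Zfp genes of other chromosomes. Members with a promoter region in all 7 time-course libraries held it in 19 of 91 cases (20.9%), and those with none in 0 of 12. The same split was not made over all genes, so it cannot be read as a trait of the members. In 9 of these 12 the model starts with coding sequence, so the window need not be a promoter. GGGCGG was less frequent in members (21.0%) than in all genes (39.4%) and in the other Zfp genes (40.0%). CCAAT (32.8% against 30.4%), ATGCAAAT (1.68% against 1.35%), TATAAA (6.72% against 10.0%) and TGANTCA, the AP-1 word (1.68% against 4.70%), were close to or below all genes. A word in these windows is not a bound site.

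The members' promoters were accessible more often than the average gene's in each of the 9 libraries. At D0, 100 of 119 members (84.0%) had a promoter region, against 58.0% of all protein-coding genes. The numbers were 104 members in D3 (87.4% against 67.8%), 105 in D6T- (88.2% against 68.3%) and 94 in D9T- (79.0% against 50.4%). They were 104 in D12S+ (87.4% against 63.0%), 102 in D16S+ (85.7% against 63.0%) and 99 in iPSCs (83.2% against 63.9%). The lowest share fell in D9T-, which was the shallowest library and the lowest for all genes too. Zfp genes of other chromosomes had nearly the same shares, from 74.7% (D9T-) to 86.2% (D6T-), so that high occupancy was not particular to chromosomes 7 and 13.

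**Figure D1:**
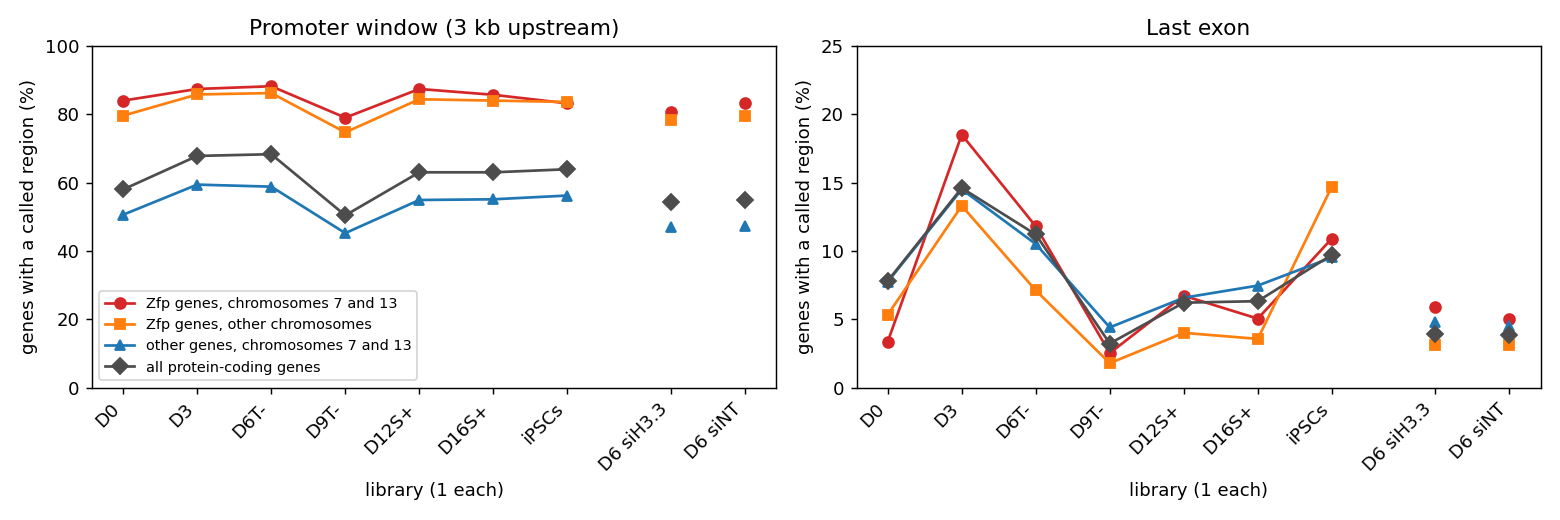
Share of genes with a called region (%, y axis) in the promoter window (left) and in the last exon (right) for each library (x axis, 1 library each), with points joined over the time course. In the promoter window both Zfp groups lie between 74.7% and 88.2%, above all protein-coding genes (50.4% to 68.3%). In the last exon the members and all protein-coding genes are highest in D3 (18.5% and 14.6%) and the other Zfp genes in iPSCs (14.7%).

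In 91 members (76.5%) every time-course library had a promoter region, against 45.4% of all genes and 71.6% of the other Zfp genes. It was absent from all 7 for 12 members (10.1%), against 25.3% of all genes. The remaining 16 members had it in 1 to 6 libraries. The highest summit in D6T- lay within 500 bases of the representative TSS in 83 of 105 members (79.0%, against 72.9% of all genes), at a median of 24 bases upstream. It fell downstream of the TSS in 46 of them (43.8%, against 34.7% of all genes). With the summit itself required inside the window, 60 members in place of 91 had a region throughout, a setting not counted over all genes.

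Levels rose and fell with the series as a whole. The median level of members with a region was 0.914 CPM in D0, 1.84 in D3, 3.23 in D6T-, 1.63 in D9T-, 2.07 in D12S+, 2.08 in D16S+ and 1.02 in iPSCs. Over all protein-coding genes it was 0.820, 1.65, 2.71, 1.36, 1.93, 1.84 and 1.02 in the same order. Of the 91 members accessible throughout, 83 (91.2%) were highest in D6T-, against 89.1% of all such genes. In D0 62 of them (68.1%) were lowest, against 70.4% of all such genes. The share of tags inside regions can differ between libraries and was not measured. These changes of level therefore cannot be told apart from a change of the whole library. Ranks within a library are given below for that reason.

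**Figure D2:**
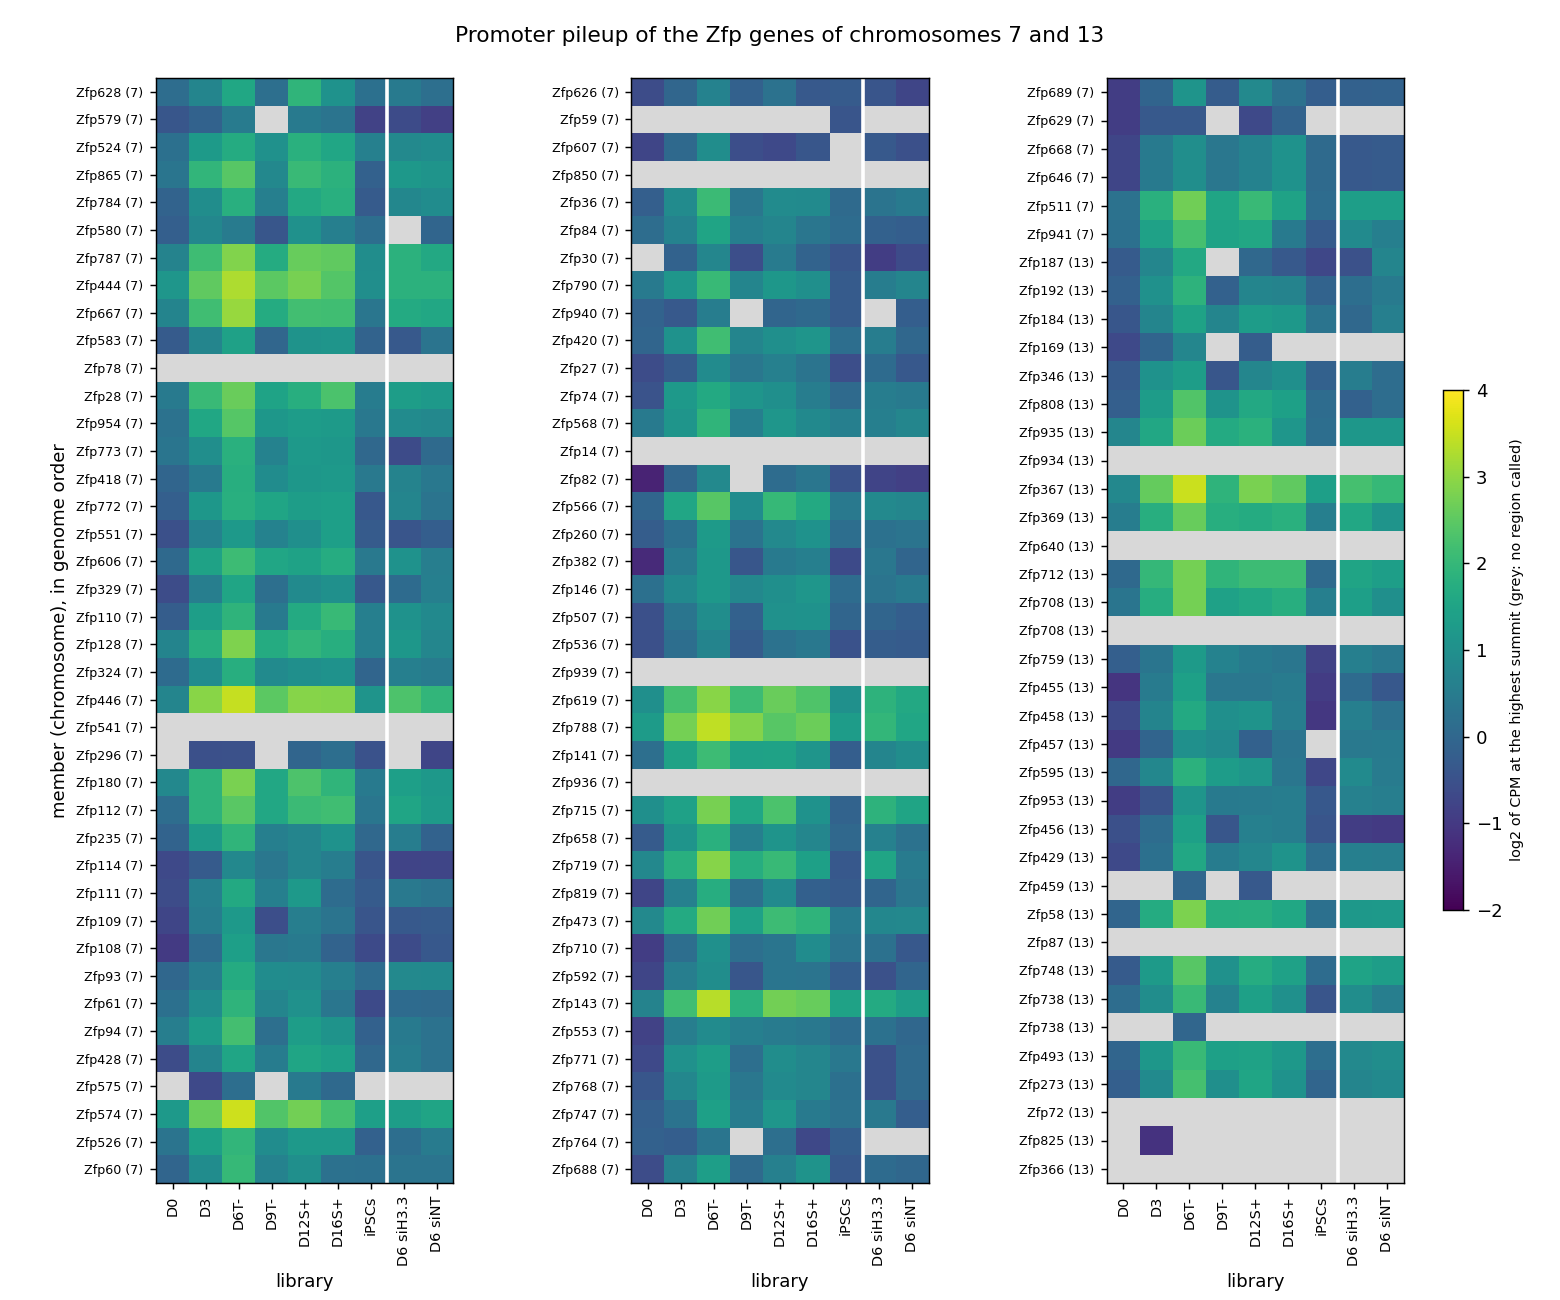
Promoter level of every member (rows in genome order, chromosome in parentheses) in the 9 libraries (columns), as the log2 of CPM at the highest summit, with grey where no region was called. Most rows are coloured in all columns, D6T- is the brightest column, and 12 rows are grey throughout.

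The 6 members with the highest median level over the time course were Zfp446, Zfp788, Zfp367, Zfp444, Zfp574 and Zfp619. Zfp446 stood at 1.67 CPM in D0, 7.61 in D3, 11.1 in D6T-, 5.60 in D9T-, 7.55 in D12S+, 7.42 in D16S+ and 2.14 in iPSCs. Its D6T- value rested on 237 tags, with a 95% exact Poisson interval of 9.71 to 12.6 that covers counting error only. Zfp574 had 2.33, 6.15, 11.6, 5.15, 6.64, 4.68 and 2.60 CPM over the same libraries. Both were low at the ends of the course and highest in D6T-. Zfp367, a transcription factor gene first described in erythroid cells, had 1.73, 5.99, 11.4, 3.71, 6.93, 5.76 and 2.60. Zfp788 was the highest member in D0 (2.46) and D9T- (7.42), with 6.71 in D3, 10.8 in D6T-, 5.39 in D12S+, 6.28 in D16S+ and 2.48 in iPSCs. Zfp619, which has the most fingers of all members (33), had 1.99, 4.66, 7.62, 4.31, 6.19, 5.05 and 2.03. Zfp444 had 2.21, 5.79, 9.63, 5.60, 6.81, 5.29 and 1.96. In iPSCs the highest member was Zfp143 (2.75), an activator of small nuclear RNA and many other genes.

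Zfp568, Zfp819, Zfp369, Zfp184 and Zfp36 had a region in all 7 time-course libraries and stood at different ranks among all genes. In D6T- Zfp369 was at percentile 86.5, Zfp568 at 67.1, Zfp819 at 59.6 and Zfp184 at 50.8. Zfp568, a KRAB repressor of an embryonic Igf2 transcript, had 1.36 CPM in D0, 2.18 in D3, 3.83 in D6T-, 1.51 in D9T-, 2.21 in D12S+, 1.79 in D16S+ and 1.50 in iPSCs. Zfp819, a KRAB gene known from pluripotent cells, had 0.599, 1.52, 3.32, 1.14, 1.82, 0.897 and 0.828 and so was accessible in MEFs already. Zfp369, which encodes a neurotrophin receptor-interacting factor, had 1.45, 3.37, 6.12, 3.41, 3.24, 3.50 and 1.50. Zfp184 had 0.757, 1.65, 2.76, 1.67, 2.50, 2.31 and 1.24. Zfp36 encodes tristetraprolin, which binds AU-rich mRNA through fingers of another type and so has no C2H2 match. Its promoter had 0.883, 1.85, 4.25, 1.29, 1.87, 1.84 and 1.05 CPM.

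Few members switched between MEFs and iPSCs. A promoter region absent in D0 and present in iPSCs was found for 3 members (2.52%), against 10.6% of all genes and 6.67% of the other Zfp genes. Only genes without a D0 region could gain one, and 84.0% of members already had one, against 58.0% of all genes. The lower share gained therefore partly restates the higher share at D0. The 3 members were Zfp296, Zfp30 and Zfp59. Zfp296 had no region in D0 and D9T-, and stood at 0.695 CPM in D3, 0.701 in D6T-, 0.965 in D12S+, 1.13 in D16S+ and 0.715 in iPSCs. Its D6T- pileup was 15 tags (interval 0.392 to 1.16 CPM), close to what could be called. Zfp30 lacked a region in D0 alone and had 0.926 in D3, 1.68 in D6T-, 0.681 in D9T-, 1.42 in D12S+, 0.945 in D16S+ and 0.752 in iPSCs. Zfp59 had a region in iPSCs alone (0.752), and 61.5% of the 51-base words around its TSS occur once in the genome, so that reads there can be ambiguous.

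A promoter region present in D0 and absent in iPSCs was found for 4 members (3.36%), against 4.65% of all genes. Only genes with a D0 region could lose one, and of these 4 of 100 members and 1040 of 12961 genes did. The 4 members were Zfp169, Zfp607, Zfp457 and Zfp629. Zfp169 had 0.631 CPM in D0, 0.959 in D3, 1.68 in D6T- and 0.852 in D12S+, with no region in D9T-, D16S+ and in iPSCs. This region lay about 8 kb inside the gene, at the start of a shorter transcript, 8016 bases from the representative TSS in D6T-. Zfp607 and Zfp457 lacked a region in iPSCs alone, and Zfp629 in D9T- and in iPSCs. These counts move with the calling threshold, and with regions kept down to the same level in every library, 6 members were gained in place of 3. With the summit required inside the window, 8 were gained and 10 lost.

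Of the 12 members without a promoter region in any library, 9 have a gene model that starts with coding sequence, so that the annotated TSS is their first coding base. Over all members 25 models start so. The 12 had a median ratio of observed to expected CpG of 0.164 around the TSS, against 0.474 for the 91 members accessible throughout and 0.155 for all genes with no region. The first 6 along the genome were Zfp78, Zfp541, Zfp850, Zfp14, Zfp939 and Zfp936. Zfp541, a gene of meiotic germ cells, had its nearest D6T- region 14350 bases upstream, and its model lacks bases before the coding sequence. Zfp78 and Zfp14 had theirs 1319 and 1755 bases downstream, inside the gene. Zfp850 had it 6220 bases away, Zfp939 13717 bases and Zfp936 96109 bases. The others were Zfp934, Zfp640, Zfp87, Zfp72, Zfp366, a gene of dendritic cells, and the second Zfp708 gene. Of these, Zfp640 had 7.90% of unique 51-base words around its TSS and Zfp934 38.2%. The second Zfp708 gene had its nearest D6T- region 232 bases downstream (0.935 CPM), just outside the upstream window. Zfp87 had its nearest one 4309 bases upstream (7.01 CPM).

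Members lie in 10 clusters of at least 3 genes spaced by no more than 200 kb, which hold 82 of them, and 37 lie outside. The percentile of a promoter among all protein-coding genes with a region in that library put the clusters in different ranges. The 6 genes from Zfp787 to Zfp28 (chr7:6083091-6347755) had a median percentile of 91.3 in D0, 91.8 in D6T-, 94.9 in D16S+ and 76.3 in iPSCs. They were the highest cluster in every library but iPSCs, where the 5 genes from Zfp329 to Zfp446 stood at 79.2. The 5 genes from Zfp60 to Zfp850 (chr7:28516408-28770815) were the lowest in D6T- (33.9) and D16S+ (11.5), over the 3 of them with a region. That cluster also had the lowest median CpG ratio (0.109) and the least unique sequence at its starts (68.0% of words), against 0.612 and 100% in the Zfp787 cluster. The 19 genes from Zfp712 to Zfp273 (chr13:67139530-67927937), the largest cluster, had a median of 54.6 in D0, 52.5 in D3, 56.8 in D6T-, 71.4 in D9T-, 57.3 in D12S+, 55.3 in D16S+ and 38.6 in iPSCs. It was lowest in iPSCs, where 14 of the 19 had a region, against 15 in D0. Such a fall was not particular to chromosome 13. The genes from Zfp180 to Zfp575 on chromosome 7 went from 60.0 in D0 to 40.6 in iPSCs. Those from Zfp553 to Zfp629 rose from 30.9 to 56.5, Zfp329 to Zfp446 from 69.1 to 79.2 and Zfp60 to Zfp850 from 32.6 to 33.6. Genes of a cluster are neighbours with related sequence and are not independent.

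**Figure D3:**
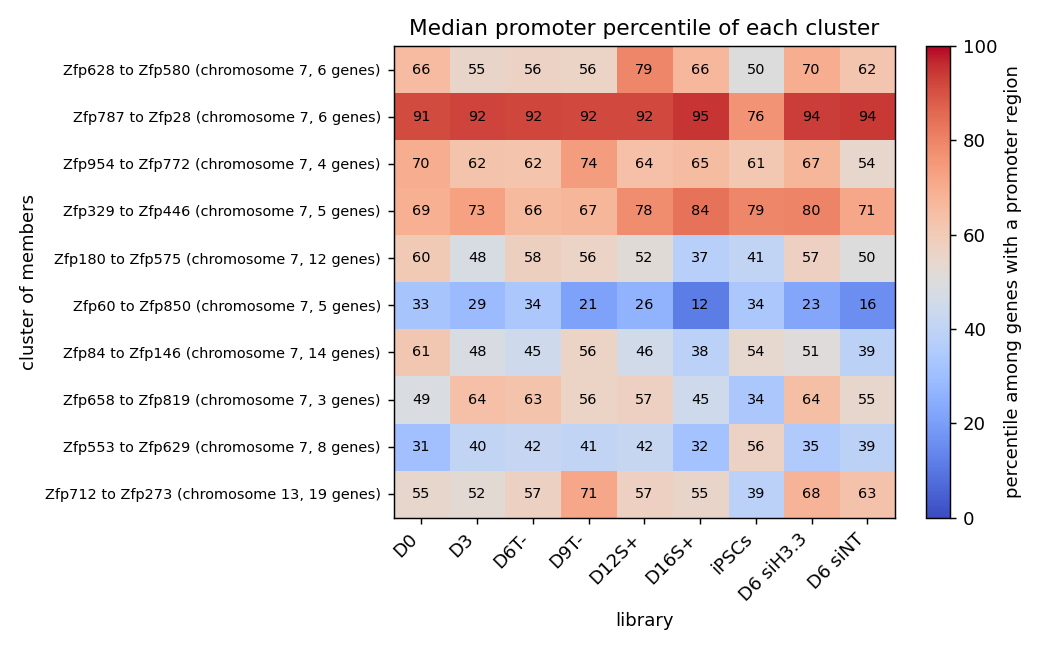
Median promoter percentile (colour and number, 0 to 100, among all protein-coding genes with a promoter region in the library) of each cluster of members (rows) in each library (columns). The Zfp787 to Zfp28 cluster has the highest value in every library but iPSCs, where the Zfp329 to Zfp446 cluster is at 79.2 and it is at 76.3. From D0 to iPSCs the chromosome 13 cluster goes from 54.6 to 38.6. On chromosome 7 the Zfp180 to Zfp575 cluster goes from 60.0 to 40.6 and the Zfp553 to Zfp629 cluster from 30.9 to 56.5.

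In rank, members stood above the median gene in MEFs and at it in iPSCs. Their median percentile was 57.3 in D0, 55.8 in D3, 58.2 in D6T-, 60.6 in D9T-, 54.8 in D12S+, 56.8 in D16S+ and 50.3 in iPSCs. Of the 96 members with a region in both D0 and iPSCs, 61 (63.5%) had a lower percentile in iPSCs and 35 a higher one. It was lower for 45.9% of all such genes and 54.9% of the other Zfp genes. The members' median difference was -3.08 points, against 1.56 over all genes and -1.61 over the other Zfp genes. It was -7.71 points on chromosome 13 (16 of 22 lower) and -2.55 on chromosome 7 (45 of 74 lower). The member with the largest difference in each direction, chosen after its values were seen, was Zfp719 downward, which went from 93.6 to 30.1 (55 and 21 tags), and Zfp710 upward, which went from 17.2 to 66.6 (17 and 33 tags).

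The last exons, the sites known for H3.3 elsewhere, were accessible about as often as those of other genes. A last-exon region was present in at least 1 time-course library for 30 members (25.2%), against 23.6% of all genes and 24.4% of the other Zfp genes. At D0 it was found for 4 members (3.36%, against 7.80% of all genes), in D3 for 22 (18.5% against 14.6%), in D6T- for 14 (11.8% against 11.2%) and in D9T- for 3 (2.52% against 3.22%). The numbers were 8 in D12S+ (6.72% against 6.21%), 6 in D16S+ (5.04% against 6.32%) and 13 in iPSCs (10.9% against 9.71%). D3 had the most and D9T- the fewest, for members and for all genes, but among members this order turned with the calling threshold. With regions kept down to the same level in every library, D3 had 9 members and D6T- 12. With equal numbers of regions D3 had 5, iPSCs 6, D9T- 3 and D12S+ 2, and with the stronger regions of each library D3 had 7, D6T- 8, D9T- 2 and D12S+ 1. These thresholds left 11 to 19 of the 30 members. Some last-exon regions also lay in the promoter of another gene, as in Zfp628 (Nat14) and Zfp575 (Ethe1). In D3 this held for 10 of 34 member regions (29.4%), against 18.9% of such regions over all genes. The members' share was below that of all genes in D6T-, D9T-, D12S+, D16S+ and iPSCs. Without these regions 25 of the 30 members remained, and 17 in place of 22 in D3, a setting not counted over all genes.

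Members' last exons are long, with a median of 2080 bases against 962 over all genes, which gives a region more room to fall in them. Among last exons of at least 2079 bases, the members' share with a region was below that of all genes in each of the 9 libraries, for example 21.7% (13 of 60) against 23.8% in D3, 13.3% against 21.2% in D6T- and 11.7% against 16.1% in iPSCs. Counted by bases, 6.00% of the coding part and 2.17% of the untranslated part of the members' last exons lay in regions in D3, against 7.08% and 3.15% over all genes. In iPSCs the shares were 3.66% and 0.540%, against 5.05% and 1.82%. At D6T- they were 2.11% and 2.25%, against 3.92% and 2.98%. Near-identical sequence could hide regions where reads map to several places, and 20 members (16.8%) had under 90% of unique words in the last exon, against 18.6% of all genes.

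**Figure D4:**
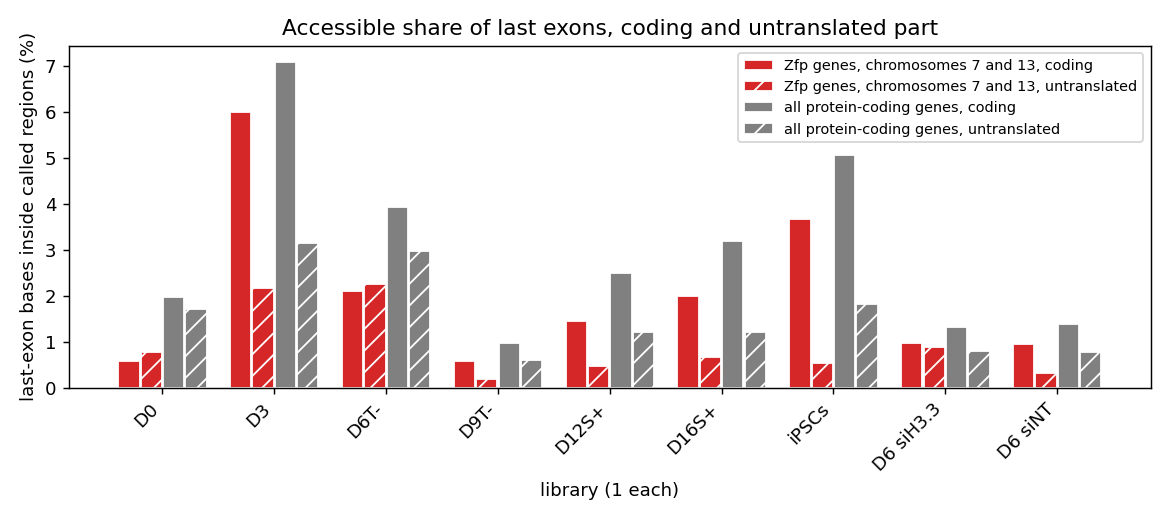
Share of last-exon bases inside called regions (%, bars from 0) in each library, for the coding (plain) and the untranslated part (hatched) of the members (red) and of all protein-coding genes (grey). At D3 the members' coding part reaches 6.00%, below the 7.08% of all genes, and in the 7 time-course libraries no red bar exceeds the grey bar of the same part.

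Of the 30 members, 27 lie on chromosome 7 (of 86) and 3 on chromosome 13 (of 33), and 14 had a last-exon region in only 1 of the 7 libraries. These splits were not made over all genes, so they cannot be read as traits of the members. The 30 members had a median of 10.5 fingers, against 11.0 in the other 89 members. Zfp771 was the exception in frequency, with a region in all 9 libraries. Its levels were 1.10 CPM in D0, 3.44 in D3, 5.42 in D6T-, 1.74 in D9T-, 3.24 in D12S+, 3.35 in D16S+ and 1.35 in iPSCs. At D6T- the region covered chr7:134397389-134398427 and its summit lay in coding sequence, 467 bases before the exon's end, within the stretch printed above. It was higher than the gene's own promoter in that library, which had 2.52 CPM.

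Zfp710 had a last-exon region in D0 (0.631), D3 (1.03), D6T- (1.82) and D9T- (0.908) and in none of the later libraries, with its summit in the untranslated part, 188 bases before the exon's end in D6T-. Zfp940 had one in D0 (0.820), D3 (0.959) and D6T- (1.26), in the untranslated part too. Zfp626 had one in D3 (0.893), D6T- (1.87), D9T- (1.67) and D12S+ (0.738), at the very end of an exon annotated as coding. Among the time-course libraries, these 3 had theirs in D12S+ or earlier. Zfp444 had one in D3 (0.496), D12S+ (0.738), D16S+ (0.945) and in iPSCs (0.677), always in coding sequence. Zfp773 had one in D6T- (0.467), D12S+ (0.738), D16S+ (1.18) and in iPSCs (0.752), in coding sequence in D6T- and in iPSCs and near the exon's end in the other 2. Zfp574 had one in D3 (0.562), D6T- (0.888), D12S+ (0.625), D16S+ (0.472) and in iPSCs (0.564), each time in the untranslated part. Zfp36 had one in D3 (0.628), D6T- (0.608), D12S+ (0.738) and D16S+ (1.65), the last of which had its summit beyond the gene. The levels of these 7 members were 0.467 to 1.87 CPM, and the part of depth in their presence or absence was not tested.

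The knockdown pair compared accessibility at day 6 after an early depletion of H3.3. The paper describes the knockdown as transient and confined to the start of reprogramming, so H3.3 need not have been low at day 6. A promoter region was present for 96 members in D6 siH3.3 (80.7%, against 54.3% of all genes) and for 99 in D6 siNT (83.2% against 54.8%). No member had one in D6 siH3.3 alone, against 2.98% of all genes. Only genes with none in D6 siNT could have one there alone, and these were a smaller share of members than of all genes. In D6 siNT alone 3 members (2.52%) had one, against 3.54%. Among genes with a D6 siNT region these were 791 of 12258 genes and 3 of 99 members. These 3 were Zfp580 (0.964 CPM in D6 siNT), Zfp940 (0.872) and Zfp296 (0.597), and the lowest pileup that could be called in D6 siH3.3 was 0.429. With stricter calling thresholds these counts were 1 and 3 to 9. Median levels were 1.45 CPM in D6 siH3.3 and 1.38 in D6 siNT, below D6T- (3.23), which was sorted for the same marker on the same day.

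Over the 96 members with a region in both, the median log2 ratio of D6 siH3.3 over D6 siNT was 0.08, against 0.06 over 11467 genes and 0.10 over 172 other Zfp genes. The interquartile range of the members ran from -0.10 to 0.28. A difference of over 2-fold was found for 1 member upward (1.04%, against 0.584% of all genes) and 1 downward (1.04%, against 0.392%). Zfp719 had 2.89 CPM in D6 siH3.3 and 1.42 in D6 siNT (54 and 31 tags), a log2 ratio of 1.02 with a 95% exact counting interval of 0.36 to 1.71. Zfp187, a SCAN zinc finger gene, had 0.696 and 1.65 (13 and 36 tags), a log2 ratio of -1.25 with an interval of -2.29 to -0.30. For the other 94 members the interval included 0, so at this depth no difference was detectable for them. Zfp719 and Zfp187 are the extremes of 96 members. Among so many 95% intervals some can exclude 0 through counting error alone, and their share was not counted over all genes. The 2 differences are therefore not shown to exceed counting error.

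**Figure D5:**
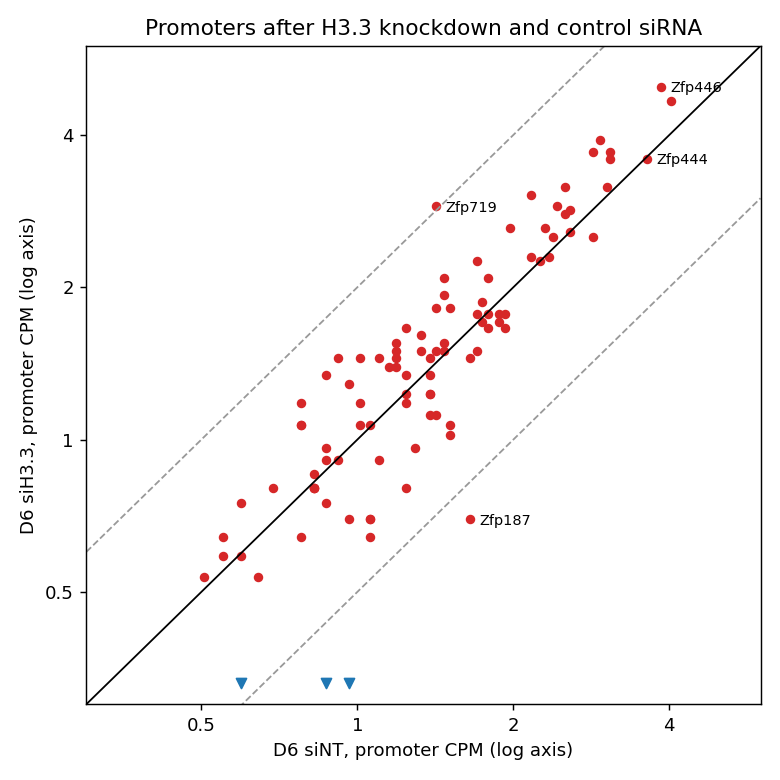
Promoter level of members in D6 siNT (x axis) and D6 siH3.3 (y axis), in CPM on log axes, with 1 point per member, the line of equal values and dashed lines at 2-fold. Zfp719 lies on the upper dashed line and Zfp187 below the lower one, and triangles at the bottom mark the 3 members with a region in D6 siNT alone.

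The next members by size were Zfp235 (log2 ratio 0.66), Zfp747 (0.62) and Zfp710 (0.59) upward. Downward they were Zfp773 (-0.72), Zfp583 (-0.62), Zfp771 (-0.60) and Zfp768 (-0.60). The promoters of Zfp771 and Zfp768 are separate regions whose tag counts happened to be equal (13 and 23). Among members with known roles, Zfp369 had 3.05 and 2.16 CPM in D6 siH3.3 and D6 siNT, Zfp568 1.50 and 1.70, Zfp819 0.964 and 1.29, Zfp184 1.02 and 1.51, and Zfp36 1.23 and 1.38. Of the strongest promoters, Zfp446 stood at 4.98 and 3.86, Zfp367 at 4.66 and 4.04, Zfp444 at 3.59 and 3.63, Zfp788 at 3.91 and 2.94, Zfp619 at 3.70 and 3.08 and Zfp574 at 2.52 and 2.85.

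Last-exon regions were as rare after either siRNA, with 7 members in D6 siH3.3 (5.88%, against 3.90% of all genes) and 6 in D6 siNT (5.04%, against 3.88%). They were shared by 5 members, among them Zfp771 (1.34 and 1.56 CPM), Zfp626 (0.857 and 0.689), Zfp658 (0.750 and 0.551) and both Zfp738 genes, which share 1 region (0.536 and 0.643). The summit of that region lay 199 (D6 siH3.3) and 319 bases (D6 siNT) downstream of the second Zfp738 gene's TSS. It therefore cannot be told apart from a region at that start. Zfp940 (0.696) and Zfp710 (0.536) had theirs in D6 siH3.3 alone, and Zfp579 (0.505) in D6 siNT alone. The lowest pileup that could be called was 0.429 CPM in D6 siH3.3 and 0.413 in D6 siNT. Zfp710 and Zfp579 were close to it, and Zfp940 stood further above it (13 tags, where the lowest called was 8).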

How the data were processed

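ATAC-Seq reads of 51 bases from 9 libraries were mapped to mm9 by the authors, who removed duplicates and called regions with MACS2 2.1.0.20151222 at a q-value cutoff of 0.05, with tags extended to 200 bases, no control and no local background. Per the labels, STAR, Picard and MACS2 were used, and the versions of the first 2 were not given in the sources used here. Pileup, as deposited, is an unscaled signal that counts the extended tags covering each summit. The deposited significance is −log10 of the q-value, which served only to rank regions. Although the methods state that mitochondrial reads were removed, the files still hold 27 to 33 mitochondrial summits per library, and total tags include them.

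Summits and overlapping regions of a library were merged here, and pileup was divided by total tags and multiplied by 1000000 (CPM). Gene models were those of GENCODE vM1, annotated on mm9. The representative transcript gave the last exon. C2H2 fingers were matched in translated GENCODE transcripts and not in RefSeq proteins as first planned, and CpG and unique 51-base words were counted from 1000 bases before to 100 bases after the TSS. Calculations used Python 3.11.15, numpy 2.4.6, pandas 2.3.3, scipy 1.17.1, numba 0.67.0, pysam 0.24.0 and matplotlib 3.10.9, and were tested on simulated data. Groups came from the labels. With 1 library per condition no test was run, and counts were set beside all protein-coding genes. Counting intervals assume independent tags and cover counting error only. Members and lists were chosen with earlier results of these data known. Named genes were those with known roles, the 6 highest promoters, promoters gained or lost, the 8 most frequent last-exon regions, the 4 largest knockdown differences each way, promoters in 1 knockdown library only and the first 6 members without a promoter region. Alternatives changed the calling threshold, the promoter window, the last-exon definition and the libraries used.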

Additional observations from a re-analysis of the deposited data

How the results depend on the processing

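The promoter counts of single libraries stayed within 1.5 times of those given in all 54 alternatives, and the last-exon counts moved, always downward, in 12 of 54. Of 55 alternatives of the summary counts and the median ratio, 37 stayed so. The rest follow. With regions kept at or above 0.530 CPM in every library, 19 members had a last-exon region in the time course, 6 promoters were gained and 1 promoter region was in D6 siH3.3 only. With the 36708 strongest regions of each library these were 11, 10 and 1, and 5 were in D6 siNT only. With only regions above their library's median −log10 q-value they were 14, 9, 1 and 9. With the summit required inside the window, 60 members had a promoter region in all 7 libraries, 8 were gained, 10 were lost, and 5 were in D6 siH3.3 only and 5 in D6 siNT only. These alternatives keep fewer regions by construction. With a promoter of 1 kb upstream to 100 bases downstream, 1 member was in D6 siH3.3 only. An alternative chosen after seeing the data, with only the 94 members whose model has bases before the coding sequence, left 3 without a promoter region. Dividing by tags without mitochondria or by the median promoter pileup, also chosen after seeing the data, moved the median log2 ratio by less than 0.1. No paired analysis was possible because each condition had 1 library.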
